A study of Rattus norvegicus with 25 samples.

Results

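Insulin and IGF signalling genes were examined in the striatum of male Lister Hooded rats whose mothers had been exposed to nicotine or pair-fed during pregnancy. The genes were the ligands Igf1 and Igf2, the receptors Igf1r, Igf2r and Insr, the receptor substrates Irs1 and Irs2, and the binding proteins Igfbp2, Igfbp4 and Igfbp5. Each probe set whose platform annotation gives 1 of these 10 symbols and no other was taken. This gave 10 probe sets of 9 genes among the 29214 probe sets of the array, with 2 for Insr and none for Irs2. RNA of each rat, killed between postnatal day (PND) 35 and 42, was hybridised to 1 Affymetrix rat gene 1.0st array. Nic offspring (n = 7) came from dams that drank a nicotine solution as their fluid from before mating. Con-Pf offspring (n = 10) came from dams given no nicotine, whose food was held each day to what a matched nicotine dam had eaten. Con offspring (n = 8) were born to dams that ate and drank freely. The litter of each rat is not given in the labels, so p-values measure the spread between animals, some of which may be littermates. In whole tissue, fewer cells of a type and less RNA per cell cannot be told apart.

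Insulin and the insulin-like growth factors bind receptor tyrosine kinases at the cell surface. These receptors phosphorylate IRS docking proteins, which pass the signal to the PI3K, AKT and mTOR kinases and to the MAP kinases. IGF-binding proteins hold most of the IGF outside cells and limit or prolong its action. In the postnatal brain, IGF1 is made by neurons and glia and acts on growth and myelination, while Igf2 RNA is found mainly in the choroid plexus and the meninges rather than in neurons.

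No insulin or IGF signalling probe set differed between any 2 of the groups at an adjusted p under 0.05. Levels are RMA values on the log2 scale, so that a difference of 1 is a doubling, and differences were tested with limma in 1 linear model over the 3 groups. Of the 10 probe sets, 9 passed the filter on low values (a mean level no lower than that of the median probe set) and were tested among 14607. The Igfbp2 probe set lay below the filter and was tested only in a fit of all 29214. Called were 0 of 9 for Nic minus Con (0.00% of all probe sets tested), 0 of 9 for Con-Pf minus Con (1.26% of all) and 0 of 9 for Nic minus Con-Pf (0.185% of all). At an unadjusted p under 0.05 there were 4 of 9 for Nic minus Con, where 16.2% of all probe sets tested passed. Of these, Igf1 and Igfbp5 were higher in Nic (2 of 9, with 12.3% of all) and Igf1r and 1 Insr probe set lower (2 of 9, with 3.96% of all). For Con-Pf minus Con there were 2 of 9, with 22.0% of all, Irs1 higher (1 of 9, with 14.2% of all) and Igf1r lower (1 of 9, with 7.76% of all). For Nic minus Con-Pf there were 2 of 9, with 4.36% of all. Both, Igf1 and Igfbp4, were higher in Nic (2 of 9, with 2.54% of all), and none was lower (0 of 9, with 1.82% of all). Without Con 3 and Con 5, the arrays farthest from the rest, the counts at an unadjusted p under 0.05 were 1 of 9 for Nic minus Con (Igfbp5, with 4.65% of all), 0 of 9 for Con-Pf minus Con (8.10% of all) and 3 of 9 for Nic minus Con-Pf (Igf1, Igfbp4 and Igfbp5, with 5.75% of all). With Con-Pf 4 and Con 2 left out instead they were 4 of 9 (17.5% of all), 1 of 9 (20.1% of all) and 2 of 9 (4.64% of all). No member was called in either case. For Nic minus Con-Pf, leaving out Con 3 and Con 5 changed no value compared, only the estimate of spread shared by the 3 groups. At the study's thresholds, a difference of 0.5 or more in size with an unadjusted p under 0.01, there were 0 of 9 in each comparison (0.0205%, 0.199% and 0.103% of all). The smallest adjusted p from limma was 0.268 for Nic minus Con, 0.135 for Con-Pf minus Con and 0.987 for Nic minus Con-Pf. Each of the 27 intervals (95%) of the 9 probe sets lay between -0.5 and 0.5, so that a difference of the size the study asked for (0.5) lay outside them. For no member did the values of 2 groups lie fully apart.

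Pearson correlations between arrays lay between 0.967 and 0.997. Con 3 and Con 5 stood apart from the other arrays on the first principal component, with scores of -25.2 and -33.9, against -11.6 to 9.63 for the other 23. Con-Pf 4 and Con 2 stood apart in choroid plexus markers. Member results that moved with these arrays are given with and without them. Markers of striatal projection neurons (11 of 12 with a probe set, all above the filter) had a mean level of 11.7 to 11.9 on each array. Markers of cortical and thalamic neurons (6 of 10 with a probe set, 3 above the filter) had a mean level between 6.44 and 7.85 in Nic, between 6.42 and 6.83 in Con-Pf and between 6.50 and 7.49 in Con. Their part in the results was not tested.

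**Figure D1:**
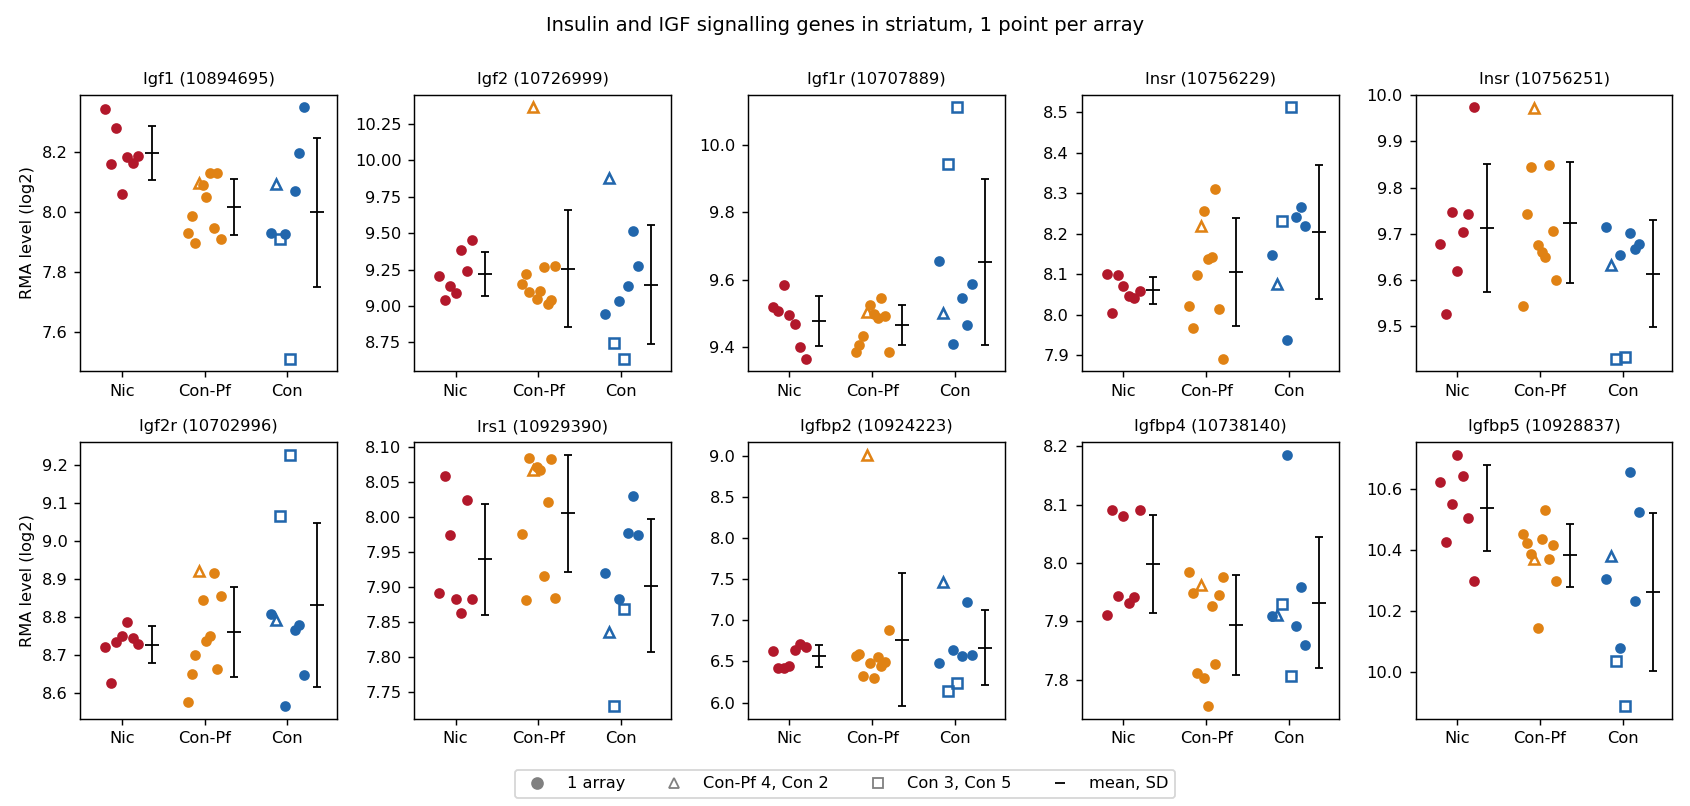
RMA level (log2) of each insulin and IGF signalling probe set on each array, by group from left to right Nic, Con-Pf and Con, with the group mean and SD as a bar beside the points. Open triangles are Con-Pf 4 and Con 2, which lie highest in Igf2 (10.37 and 9.88) and Igfbp2 (9.02 and 7.47), and open squares are Con 3 and Con 5, which lie highest in Igf1r (9.94 and 10.11) and Igf2r (9.06 and 9.23).

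Igf1 encodes the ligand of the IGF1 receptor. Its level was 8.06 at the lowest, 8.18 at the median and 8.34 at the highest in Nic. In Con-Pf it was 7.90, 8.02 and 8.13, and in Con 7.51, 8.00 and 8.35. Of the 7 Nic rats, 6 lay above all 10 Con-Pf rats, whereas the Con values spanned those of both other groups. Igf1 averaged 8.20 ± 0.09 in Nic, 8.02 ± 0.09 in Con-Pf and 8.00 ± 0.25 in Con (SD). The difference Nic minus Con-Pf was 0.18 (SE 0.08, limma p = 0.0235, adjusted p = 0.987), and Nic minus Con was 0.20 (SE 0.08, p = 0.0184, adjusted p = 0.273). Con-Pf minus Con was 0.02 (SE 0.07, adjusted p = 0.900). Neither difference of Nic passed the adjustment over all probe sets. The lowest Con value was that of Con 5. With Con 3 and Con 5 left out, Nic minus Con was 0.10 (SE 0.06, limma p = 0.112, adjusted p = 0.953). Nic minus Con-Pf was again 0.18 there, with an SE of 0.05, an unadjusted limma p of 0.00307 and an adjusted p of 0.375. Con 3 and Con 5 are in neither of these groups, so only the estimate of spread that all groups share had changed. Con-Pf minus Con changed sign without them (-0.08, SE 0.06, adjusted p = 0.812).

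Igfbp5 encodes an IGF-binding protein that is also bound to the extracellular matrix. Its level was 10.30 at the lowest, 10.55 at the median and 10.71 at the highest in Nic. In Con-Pf it was 10.14, 10.40 and 10.53, and in Con 9.89, 10.27 and 10.65. All 7 Nic rats lay above the Con median and 6 of 7 above the Con-Pf median, and all 3 groups overlapped. The group means were 10.54 ± 0.14 in Nic, 10.38 ± 0.10 in Con-Pf and 10.26 ± 0.26 in Con (SD). Nic minus Con was 0.27 (SE 0.09, 95% interval 0.10 to 0.45), the largest difference in size of any tested member in the 3 comparisons. Its unadjusted limma p was 0.00369, rank 171 of the 14607 probe sets tested, and its adjusted p was 0.268. Nic minus Con-Pf was 0.15 (SE 0.08, adjusted p = 0.999) and Con-Pf minus Con was 0.12 (SE 0.08, adjusted p = 0.360). Con 5 and Con 3 held the lowest values of all 25 arrays, 9.89 and 10.04. Without them the Igfbp5 difference for Nic minus Con was 0.17 (SE 0.08, limma p = 0.0336, adjusted p = 0.953) and Con-Pf minus Con was 0.02 (SE 0.07).

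Igfbp4 encodes an IGF-binding protein that holds IGF away from its receptor until it is cut by the protease PAPPA. Its level was 7.91, 7.94 and 8.09 (lowest, median, highest) in Nic, 7.75, 7.94 and 7.99 in Con-Pf, and 7.81, 7.91 and 8.19 in Con. In Nic, 3 of 7 rats lay above all Con-Pf rats, and the medians of the 3 groups lay close together. Nic minus Con-Pf was 0.10 (SE 0.05, limma p = 0.0390, adjusted p = 0.999), Nic minus Con was 0.07 (SE 0.05, adjusted p = 0.472) and Con-Pf minus Con was -0.04 (SE 0.05, adjusted p = 0.636). With its within-group SD of 0.09, Igfbp4 varied less between animals than most members. The methods' t-test gave 2 of 9 members for Nic minus Con (10.8% of all), 1 of 9 for Con-Pf minus Con (13.2% of all) and 3 of 9 for Nic minus Con-Pf (6.53% of all) at an unadjusted p under 0.05. After adjustment it gave 0 of 9 in each (0.00%, 0.452% and 0.0411% of all). In the last of these comparisons its unadjusted p was 0.00149 for Igf1, 0.0261 for Igfbp4 and 0.0329 for Igfbp5, and the adjusted p was 0.269, 0.693 and 0.715.

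**Figure D2:**
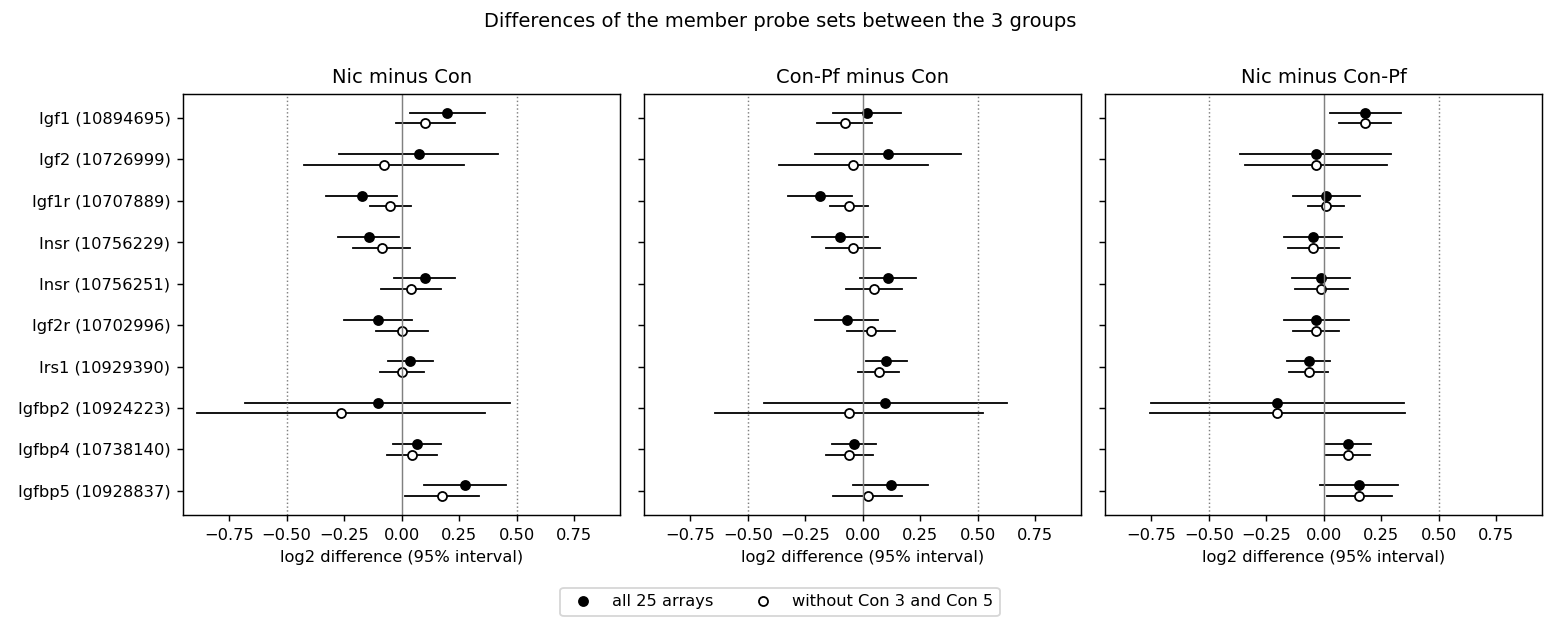
Difference in log2 level between groups for each member probe set (points) with its 95% interval from limma (lines), in the panels Nic minus Con, Con-Pf minus Con and Nic minus Con-Pf. Filled points use all 25 arrays and open points leave out Con 3 and Con 5: with all arrays Igf1r lay at -0.17 and -0.19 in the comparisons with Con, and without these it lay at -0.05 and -0.06.

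Igf2, the fetal growth ligand, and Igfbp2, a binding protein with a preference for IGF2, varied most between animals and varied together. Igf2 had levels of 9.04, 9.20 and 9.46 (lowest, median, highest) in Nic, 9.01, 9.12 and 10.37 in Con-Pf, and 8.64, 9.09 and 9.88 in Con. Igfbp2 had levels of 6.42, 6.63 and 6.72 in Nic, 6.30, 6.52 and 9.02 in Con-Pf, and 6.14, 6.57 and 7.47 in Con. For both genes the highest array was Con-Pf 4 and the next Con 2, while Con 3 and Con 5 were the lowest. The within-group SD of Igf2 was 0.35, at percentile 99.0 of the 14607 probe sets above the filter. That of Igfbp2 was 0.58, at percentile 99.3 of all 29214. Without Con-Pf 4 and Con 2 the SDs were 0.20 and 0.23.

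The groups did not separate in either gene. Igf2 differed by 0.08 (SE 0.17, adjusted p = 0.826) for Nic minus Con, by 0.11 (SE 0.15, adjusted p = 0.683) for Con-Pf minus Con and by -0.04 (SE 0.16, adjusted p = 0.999) for Nic minus Con-Pf. Igfbp2, in the limma fit of all probe sets, differed by -0.10 (SE 0.28, adjusted p = 0.912), 0.10 (SE 0.26, adjusted p = 0.908) and -0.20 (SE 0.27, adjusted p = 1.00) in the same order. Its intervals with all 25 arrays ran from -0.68 to 0.47, from -0.43 to 0.63 and from -0.75 to 0.35, so that each took in a difference of 0.5 in size. In fits without Con-Pf 4 and Con 2, chosen after seeing the data, Igf2 differed by 0.18 (SE 0.10, adjusted p = 0.326), 0.09 (SE 0.09) and 0.09 (SE 0.09), and Igfbp2 by 0.01 (SE 0.12), -0.04 (SE 0.11) and 0.05 (SE 0.11), again in that order. The Igfbp2 intervals there were -0.23 to 0.25, -0.27 to 0.19 and -0.18 to 0.28, all within 0.5 in size. Without Con 3 and Con 5, Igf2 differed by -0.08 (SE 0.17) for Nic minus Con and by -0.04 (SE 0.16) for Con-Pf minus Con. The direction of the Igf2 and Igfbp2 differences therefore changed with which arrays were kept.

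Over the 25 arrays, with each value taken as its deviation from its group mean, Igf2 and Igfbp2 had a Pearson r of 0.93 and a Spearman rho of 0.87. For each the permutation p was 1e-05, the smallest that 100000 permutations can give, and 0.00036 after adjustment over the 36 pairs of member genes. Without Con-Pf 4 and Con 2, r was 0.84. Within the groups r was 0.79 in Nic, 0.98 in Con-Pf and 0.96 in Con. Of all named probe sets above the filter, Igf2 was also the one most like Igfbp2. The genes most like Igf2 were Mdk, which encodes the growth factor midkine (r = 0.96, n = 25), Slc13a4, a sulfate transporter (r = 0.90), and Dab2, an endocytic adaptor (r = 0.89). Without Con-Pf 4 and Con 2 the r of these genes was 0.86, 0.64 and 0.82. Those next after Igf2 in likeness to Igfbp2 were Slc13a4 (r = 0.92) and Mmp2, a matrix protease (r = 0.90). Without the 2 most distant arrays the r was 0.76 for Slc13a4 and 0.24 for Mmp2.

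The stretches upstream of these genes are shown because Igf2 and Igfbp2 were the members that varied most closely together. The promoter table used here, from RefSeq (build GRCr8), matched 9 of the 10 genes asked for, with 2 start sites for Igf2. The 250 bases before each start are written 5′ to 3′ on the strand of the gene, with capitals for GGGCGG, the GC box bound by Sp1-type factors, searched on both strands.
Igf2, first start site, chr1:207253981-207254230, minus strand: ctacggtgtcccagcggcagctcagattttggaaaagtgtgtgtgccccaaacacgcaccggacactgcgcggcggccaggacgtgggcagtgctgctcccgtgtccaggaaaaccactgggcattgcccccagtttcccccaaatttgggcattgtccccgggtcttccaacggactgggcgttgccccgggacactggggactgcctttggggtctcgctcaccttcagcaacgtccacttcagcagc
Igf2, second start site, chr1:207250476-207250725, minus strand: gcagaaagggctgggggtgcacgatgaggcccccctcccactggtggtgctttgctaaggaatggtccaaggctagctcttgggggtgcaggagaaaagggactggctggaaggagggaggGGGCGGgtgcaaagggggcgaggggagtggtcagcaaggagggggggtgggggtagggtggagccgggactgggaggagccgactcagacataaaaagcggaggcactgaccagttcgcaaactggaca
Igfbp2, chr9:81864561-81864810, plus strand: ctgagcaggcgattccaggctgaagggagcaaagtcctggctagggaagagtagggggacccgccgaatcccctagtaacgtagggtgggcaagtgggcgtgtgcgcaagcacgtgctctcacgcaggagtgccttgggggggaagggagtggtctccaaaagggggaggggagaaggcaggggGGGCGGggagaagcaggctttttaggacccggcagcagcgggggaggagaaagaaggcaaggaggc

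The second Igf2 stretch and the Igfbp2 stretch each held 1 GGGCGG match and the first Igf2 stretch held 0, where 30.5% of the 33469 upstream stretches of this length in the table held at least 1. Among the other members Igf1r had 1 match, Igf2r had 2 and Irs1 had 2, while Igf1, Insr, Igfbp4 and Igfbp5 had 0. The E-box CACGTG, searched in the same way, was found once each upstream of Igf1r and Igfbp2 and 2 times upstream of Igf2r, and in 5.59% of all stretches. TATAAA was found once, upstream of Igfbp4, and in 12.9% of all stretches.

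Igf2 and Igfbp2 were set against markers of choroid plexus and of leptomeninges. Of the 12 choroid plexus markers 11 had a probe set, of which 2 (Ttr and Folr1) passed the filter. Their mean level was 9.61 on Con-Pf 4 and 9.01 on Con 2, and between 5.88 and 7.04 on the other 23 arrays. Ttr, the transthyretin gene and a defining marker, had a level of 13.69 on Con-Pf 4 and 13.48 on Con 2, against 6.92 to 11.56 on the other 23. Over all 25 arrays r with the choroid plexus mean was 0.83 for Igf2 (permutation p = 0.00039, adjusted over 90 relations 0.0072). For Igfbp2 it was 0.88 (permutation p = 3e-05, adjusted 0.0009). As Con-Pf 4 and Con 2 form a cluster of their own, the relation is also given over the others. There r was 0.25 for Igf2 and 0.51 for Igfbp2. Over all 25 arrays the rho was 0.53 for Igf2, which did not pass the adjustment over 90 relations (permutation p = 0.00661, adjusted 0.119), and 0.70 for Igfbp2 (permutation p = 0.00017, adjusted 0.0051).

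Of the 14 markers of leptomeninges and perivascular fibroblasts 13 had a probe set, of which 8 passed the filter. Their mean level ran from 7.41 to 7.59 in Nic, from 7.34 to 7.74 in Con-Pf and from 7.37 to 7.75 in Con. The 3 highest arrays, Con 2 (7.75), Con-Pf 4 (7.74) and Con 7 (7.69), were also the 3 highest for Igf2 and for Igfbp2. Over 25 arrays Igf2 had an r of 0.92 and a rho of 0.93 with this mean, and Igfbp2 an r of 0.87 and a rho of 0.85 (each permutation p 1e-05, the smallest possible, adjusted over 90 relations 0.00045). Without Con-Pf 4 and Con 2, r was 0.85 and 0.86. Dcn, a defining fibroblast marker, reached 8.98 on Con-Pf 4 and 8.66 on Con 2, within the 8.24 to 9.04 of the other arrays, while Slc13a4 of the same list reached 9.49 and 9.02, above their 7.13 to 7.63. The part of such tissue in the Igf2 and Igfbp2 levels was not tested.

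**Figure D3:**
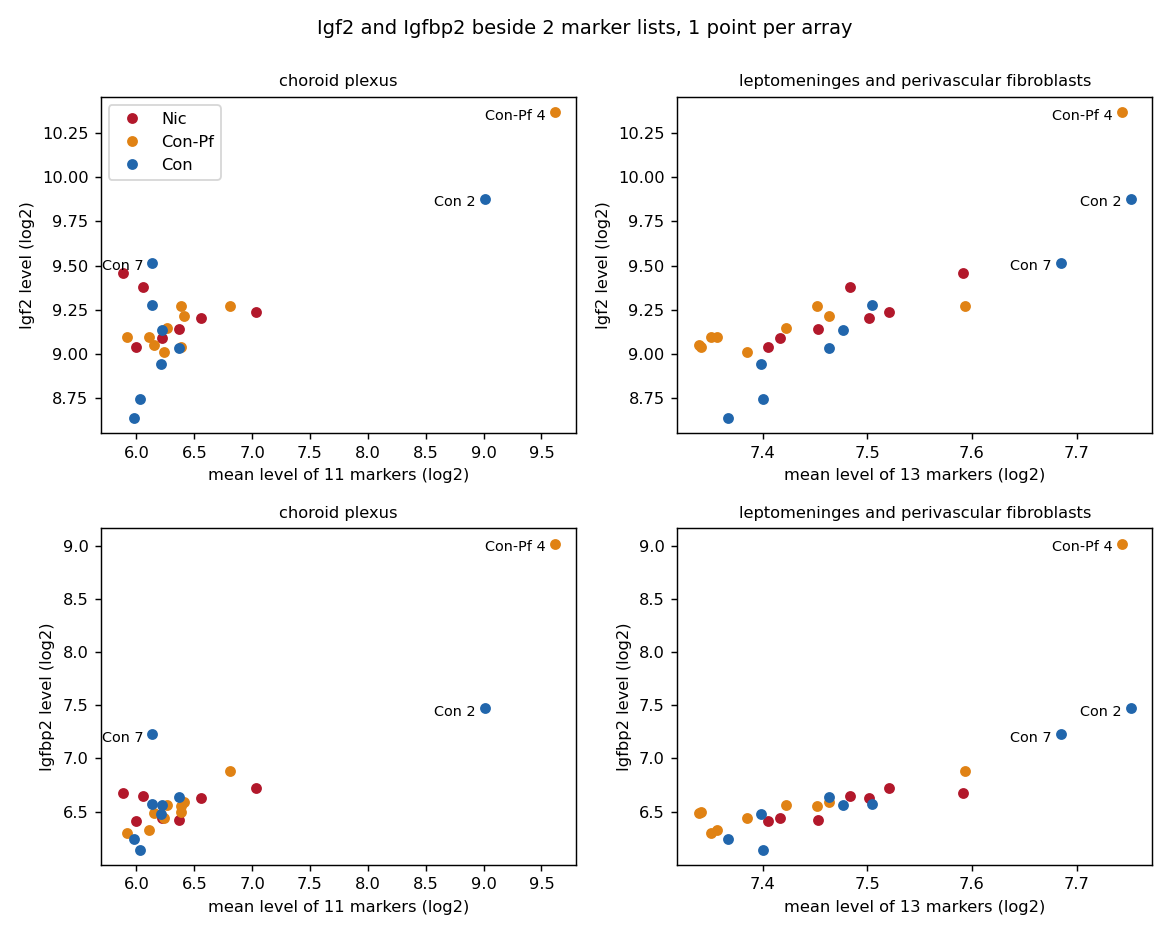
Level of Igf2 (upper panels) and Igfbp2 (lower panels) against the mean level of 11 choroid plexus markers (left) or 13 markers of leptomeninges and perivascular fibroblasts (right), all on the log2 scale with 1 point per array coloured by group. Con-Pf 4 and Con 2 lie apart at choroid plexus means of 9.61 and 9.01, while at leptomeningeal means of 7.74 and 7.75 the same arrays have Igfbp2 levels of 9.02 and 7.47.

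Igf1r encodes the IGF1 receptor, a tyrosine kinase. Its level was 9.37, 9.50 and 9.58 (lowest, median, highest) in Nic, 9.39, 9.49 and 9.55 in Con-Pf, and 9.41, 9.57 and 10.11 in Con. No Con-Pf rat and 1 of 7 Nic rats lay above the Con median. Con 5 and Con 3, at 10.11 and 9.94, were the highest of all 25. Igf1r averaged 9.48 ± 0.07 in Nic, 9.47 ± 0.06 in Con-Pf and 9.65 ± 0.25 in Con (SD). Nic minus Con was -0.17 (SE 0.07, limma p = 0.0262, adjusted p = 0.279). Con-Pf minus Con was -0.19 (SE 0.07, p = 0.0111), with the smallest adjusted p of any member, 0.135. Nic minus Con-Pf was 0.01 (SE 0.07, 95% interval -0.13 to 0.16). Without Con 3 and Con 5 the Con mean was 9.53, Nic minus Con was -0.05 (SE 0.04, adjusted p = 0.953) and Con-Pf minus Con was -0.06 (SE 0.04, adjusted p = 0.776). These 2 comparisons share the Con rats.

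Igf2r encodes the mannose 6-phosphate and IGF2 receptor, which carries IGF2 to lysosomes and has no kinase. Its level was 8.63, 8.74 and 8.79 (lowest, median, highest) in Nic, 8.58, 8.74 and 8.92 in Con-Pf, and 8.57, 8.79 and 9.23 in Con. Con 5 and Con 3 were again the highest of the 25 arrays, at 9.23 and 9.06, and the groups overlapped throughout. Nic minus Con was -0.10 (SE 0.07, adjusted p = 0.439), Con-Pf minus Con -0.07 (SE 0.07, adjusted p = 0.530) and Nic minus Con-Pf -0.03 (SE 0.07, adjusted p = 0.999). Once Con 3 and Con 5 were left out, the first was 0.00084 (SE 0.05) and the second 0.03 (SE 0.05).

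Igf1r and Igf2r deviated from their group means together, with r = 0.79 (permutation p = 2e-05, adjusted 0.00036) and rho = 0.58 (permutation p = 0.00338, adjusted 0.0304) over 25 arrays. Without Con 5 and Con 3, the most distant arrays, r was 0.54. Within the groups it was -0.18 in Nic, 0.56 in Con-Pf and 0.94 in Con, so that part of the size of the relation rested on these 2 Con rats. The genes most like Igf1r were Kpna6, a nuclear import factor (r = 0.96), Rad54l2 (r = 0.93) and Sptan1, an alpha spectrin (r = 0.93). Those most like Igf2r were Hars2, a mitochondrial histidyl-tRNA synthetase (r = 0.91), Snrnp200, a spliceosome helicase (r = 0.90), and Add1, an adducin (r = 0.90). Igf1r also followed the mean level of 8 astrocyte markers, with r = 0.65 (permutation p = 4e-04, adjusted 0.0072) and rho = 0.42 (adjusted p = 0.366), and r = 0.48 without Con 4 and Con 5. Con 5 had the highest astrocyte mean of all arrays, 11.29, and Con 4 the lowest, 10.95. Con 3, which stayed in, had the next highest, 11.28. The relation was not computed without both Con 3 and Con 5, and the part of astrocytes in the Igf1r level was not tested.

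Insr, the insulin receptor gene, was measured by 2 probe sets, whose differences from Con had opposite signs. Probe set 10756229, annotated to the RefSeq transcript, had levels of 8.01, 8.06 and 8.10 (lowest, median, highest) in Nic, 7.89, 8.12 and 8.31 in Con-Pf, and 7.94, 8.22 and 8.51 in Con. Probe set 10756251, annotated to a cDNA clone, had levels of 9.53, 9.70 and 9.97 in Nic, 9.54, 9.69 and 9.97 in Con-Pf, and 9.43, 9.66 and 9.71 in Con. For the first, no Nic rat lay above the Con median, and for the second, 3 of 7 Nic rats and 4 of 10 Con-Pf rats lay above all Con rats. The first differed by -0.14 (SE 0.06, limma p = 0.0351, adjusted p = 0.290) for Nic minus Con and by -0.10 (SE 0.06, adjusted p = 0.322) for Con-Pf minus Con. The second differed by 0.10 (SE 0.06, adjusted p = 0.414) and 0.11 (SE 0.06, adjusted p = 0.269). For Nic minus Con-Pf they differed by -0.05 (SE 0.06) and -0.01 (SE 0.06). After Con 3 and Con 5 were left out, the first differed by -0.09 (SE 0.06, adjusted p = 0.953) for Nic minus Con and -0.04 (SE 0.06) for Con-Pf minus Con, and the second by 0.04 (SE 0.06) and 0.05 (SE 0.06).

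The gap between the 2 Insr probe sets on each array, 10756251 minus 10756229, was chosen for description after their values were seen and was not tested. It was 1.65 ± 0.13 in Nic, 1.62 ± 0.13 in Con-Pf and 1.41 ± 0.25 in Con (SD, log2). It was wider by 0.24 in Nic than in Con, by 0.21 in Con-Pf than in Con and by 0.03 in Nic than in Con-Pf. The narrowest gaps were those of Con 5 (0.92) and Con 3 (1.20), and without them the first 2 differences were 0.13 and 0.09. Which transcripts each probe set reads was not analysed here, and probes of different sets differ in brightness, so the gap is no ratio of transcripts.

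Irs1 encodes a docking protein phosphorylated by the insulin and IGF1 receptors. Its level was 7.86, 7.89 and 8.06 (lowest, median, highest) in Nic, 7.88, 8.04 and 8.08 in Con-Pf, and 7.73, 7.90 and 8.03 in Con. In Con-Pf, 5 of 10 rats lay above all 8 Con rats and 8 of 10 above the Con median. Con-Pf minus Con was 0.10 (SE 0.04, limma p = 0.0247, adjusted p = 0.176), Nic minus Con 0.04 (SE 0.05, adjusted p = 0.675) and Nic minus Con-Pf -0.07 (SE 0.04, adjusted p = 0.999). In the fit without Con 3 and Con 5, Con-Pf minus Con was 0.07 (SE 0.04, p = 0.123, adjusted p = 0.762). Con 3 had the lowest Irs1 level of the 25 arrays. Irs1 had the smallest within-group SD of the members, 0.09, at percentile 18.4 of the probe sets above the filter. The probe sets most like it were 2 of Rps25, a protein of the small ribosomal subunit (r = 0.83 and 0.82), and Zcrb1, a splicing factor (r = 0.82).

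Beyond the pairs above, Igf2 with Insr probe set 10756251 (r = 0.55, permutation p = 0.00389, adjusted 0.0467, rho = 0.38, adjusted 0.265, r = 0.48 without Con-Pf 4 and Con 2) passed the adjustment in r and not in rho. Igf1 with Igfbp5 did so as well (r = 0.55, permutation p = 0.00535, adjusted 0.0481, rho = 0.36, adjusted 0.265), with r = 0.21 without Con 5 and Con 8. The other Insr probe set, 10756229, was not entered in the relations, so its relation to Igf2 was not tested. Another 2 pairs passed in rho and not in r. Igf2 with Igf1r had a rho of -0.61 (permutation p = 0.00168, adjusted 0.0277) and an r of -0.46 (adjusted 0.0905), with r = -0.74 without Con-Pf 4 and Con 2. Without Con 3 and Con 5 the r of this pair was -0.26. Within the groups it was -0.68 in Nic, 0.07 in Con-Pf and -0.72 in Con. Igf1r with Igfbp2 had a rho of -0.59 (permutation p = 0.00231, adjusted 0.0277) and an r of -0.28 (adjusted 0.281), with r = -0.15 without Con 5 and Con 3. Of the 36 pairs, 4 had an adjusted p of r under 0.05, 4 had an adjusted p of rho under 0.05 and 2 had both. The genes most like Igf1 were Akr7a2 (r = 0.85), the dynein light chain gene Dynll1 (r = 0.83) and the lactate dehydrogenase gene Ldhb (r = 0.81). For Igfbp5 they were the neural transcription factor gene Pou3f2 (r = 0.78), Gstm1 (r = 0.77) and Cmtm3 (r = 0.76). For Igfbp4 they were RT1-CE15, a class I histocompatibility gene (r = 0.77), the collagen gene Col5a3 (r = 0.75) and Chmp6 (r = 0.71), and for Insr probe set 10756251 Phf12 (r = 0.74), Ntng1 (r = 0.73) and Dab2 (r = 0.71).

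**Figure D4:**
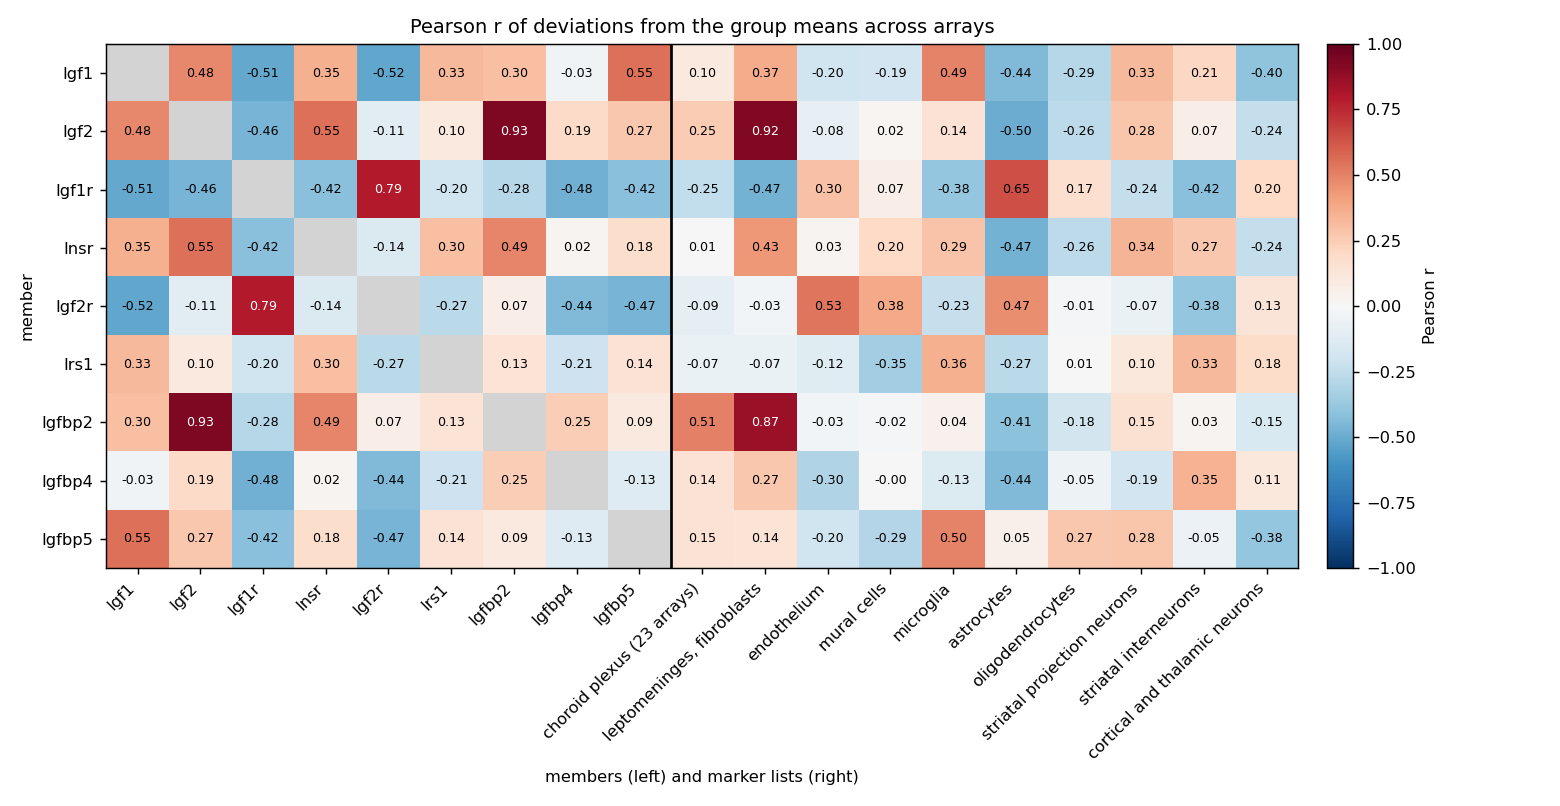
Pearson r between members (left block) and between members and the mean level of marker lists (right block), from deviations from the group means over 25 arrays, or 23 for choroid plexus, where Con-Pf 4 and Con 2 were left out. Insr is probe set 10756251. Red is positive and blue negative, with the darkest cells at Igf2 with Igfbp2 (0.93) and Igf2 with leptomeninges (0.92).

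The other genes of the pathway were taken as 6 lists of 91 genes, of which 75 had a probe set and 63 passed the filter. No gene of these lists was called in any comparison. At an unadjusted p under 0.05 there were 11 of 63 (17.5%) for Nic minus Con, 13 of 63 (20.6%) for Con-Pf minus Con and 3 of 63 (4.76%) for Nic minus Con-Pf, beside 16.2%, 22.0% and 4.36% of all probe sets tested. The median difference over the 63 was -0.0044, -0.022 and 0.014, beside 0.024, 0.015 and 0.0082 over all 14607 probe sets. With Con 3 and Con 5 left out the counts were 1 of 63 (1.59%, Akt1s1), 2 of 63 (3.17%, Grb14 and Sgk1) and 3 of 63 (4.76%), beside 4.65%, 8.10% and 5.75% of all, again with none called. Counts in the comparisons with Con were thus lower without these 2 Con rats, in the pathway and over the array. The values of single genes that follow are from all 25 arrays unless said otherwise.

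Among inhibitors of the pathway, 14 of 18 passed the filter, with 5, 5 and 0 of them at an unadjusted p under 0.05 in the 3 comparisons. The shares over all probe sets tested were 16.2%, 22.0% and 4.36%. These counts were 0, 1 and 0 of 14 without Con 3 and Con 5, beside 4.65%, 8.10% and 5.75% of all. Grb14, an adaptor that blocks the insulin receptor kinase, had the smallest adjusted p of the 63 genes, 0.0534, with a difference of 0.15 (SE 0.04) for Con-Pf minus Con, and Nic minus Con-Pf was -0.07 (SE 0.04). In the fit that left out Con 3 and Con 5, its Con-Pf minus Con difference was 0.14 (SE 0.04, limma adjusted p = 0.255). Ddit4, a stress-induced inhibitor of mTOR, differed by -0.16 (SE 0.07, limma adjusted p = 0.277) for Nic minus Con and by -0.18 (SE 0.06, adjusted p = 0.119) for Con-Pf minus Con. Phlpp1, an AKT phosphatase, differed by -0.11 (SE 0.05, adjusted p = 0.279) for Nic minus Con, and Socs2, a feedback inhibitor of growth factor signalling, by 0.07 (SE 0.06) for Nic minus Con-Pf. Ddit4 differed by -0.09 (SE 0.06) for Nic minus Con and -0.10 (SE 0.06) for Con-Pf minus Con once Con 3 and Con 5 were left out. Phlpp1 then differed by -0.06 (SE 0.04) for Nic minus Con.

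In the mTOR arm, 12 of 14 genes passed the filter, with 4, 3 and 1 at an unadjusted p under 0.05 (16.2%, 22.0% and 4.36% of all). The counts without Con 3 and Con 5 were 1, 0 and 1 (4.65%, 8.10% and 5.75% of all). Akt1s1, which encodes the mTOR inhibitor PRAS40, differed by 0.17 (SE 0.06, adjusted p = 0.268) for Nic minus Con and by 0.13 (SE 0.06, adjusted p = 0.999) for Nic minus Con-Pf. Rheb, the GTPase that activates mTOR, differed by 0.16 (SE 0.06, adjusted p = 0.276) for Nic minus Con and 0.17 (SE 0.06, adjusted p = 0.116) for Con-Pf minus Con, and Mtor itself by -0.09 (SE 0.04, adjusted p = 0.163) for Con-Pf minus Con. Rps6kb2, a kinase downstream of mTOR, differed by -0.08 (SE 0.06) for Nic minus Con-Pf. Once Con 3 and Con 5 were left out, Akt1s1 differed by 0.11 (SE 0.05) and Rheb by 0.09 (SE 0.06) for Nic minus Con. For Con-Pf minus Con, Rheb then differed by 0.10 (SE 0.05) and Mtor by -0.05 (SE 0.03).

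In the PI3K, AKT and FOXO arm, 14 of 17 genes passed the filter, with 0, 3 and 2 at an unadjusted p under 0.05 (16.2%, 22.0% and 4.36% of all). The counts without Con 3 and Con 5 were 0, 1 and 2 (4.65%, 8.10% and 5.75% of all). Foxo3, a transcription factor held out of the nucleus by AKT, differed by -0.12 (SE 0.06, adjusted p = 0.319) for Nic minus Con and -0.14 (SE 0.06, adjusted p = 0.162) for Con-Pf minus Con. Pdpk1, the kinase that activates AKT, differed by -0.09 (SE 0.05) and -0.12 (SE 0.05, adjusted p = 0.152). For Nic minus Con-Pf, Foxo4 differed by -0.11 (SE 0.04, adjusted p = 0.874) and the kinase gene Sgk1 by 0.08 (SE 0.04, adjusted p = 0.999). Foxo3 differed by -0.04 (SE 0.05) for Nic minus Con and -0.06 (SE 0.05) for Con-Pf minus Con once Con 3 and Con 5 were left out. Pdpk1 then differed by -0.02 (SE 0.04) and -0.06 (SE 0.04) in the same order.

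In the RAS and MAP kinase arm, 11 of 15 genes passed the filter, with 1, 1 and 0 at an unadjusted p under 0.05 (16.2%, 22.0% and 4.36% of all). The counts without Con 3 and Con 5 were 0, 0 and 0 (4.65%, 8.10% and 5.75% of all). Shc1 and Grb2, both receptor adaptors, differed by -0.18 (SE 0.08, adjusted p = 0.299) and 0.07 (SE 0.04) for Nic minus Con. Sos2, a RAS activator, and the kinase gene Braf differed by -0.17 (SE 0.06, adjusted p = 0.152) and -0.08 (SE 0.04) for Con-Pf minus Con. Gab1 and Nras differed by -0.07 (SE 0.05) and 0.05 (SE 0.04) for Nic minus Con-Pf. Once Con 3 and Con 5 were left out, Shc1 differed by -0.05 (SE 0.06) and Grb2 by 0.05 (SE 0.04) for Nic minus Con. Sos2 and Braf then differed by -0.06 (SE 0.05) and -0.05 (SE 0.04) for Con-Pf minus Con.

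Of the other substrates and adaptors 6 of 12 passed the filter, with 1, 1 and 0 at an unadjusted p under 0.05 (16.2%, 22.0% and 4.36% of all). The counts without Con 3 and Con 5 were 0, 0 and 0 (4.65%, 8.10% and 5.75% of all). Sh2b1, an adaptor of the insulin receptor, differed by 0.14 (SE 0.05, adjusted p = 0.268) for Nic minus Con, 0.11 (SE 0.04, adjusted p = 0.157) for Con-Pf minus Con and 0.03 (SE 0.05) for Nic minus Con-Pf. Its relative Sh2b2 differed by -0.08 (SE 0.06) for Con-Pf minus Con, and the adaptor gene Nck1 by 0.12 (SE 0.07) for Nic minus Con and 0.06 (SE 0.06) for Nic minus Con-Pf. Once Con 3 and Con 5 were left out, Sh2b1 differed by 0.07 (SE 0.04) and Nck1 by 0.11 (SE 0.07) for Nic minus Con. For Con-Pf minus Con, Sh2b1 then differed by 0.04 (SE 0.03) and Sh2b2 by -0.11 (SE 0.07).

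Of the other ligands, binding proteins and their proteases, 6 of 15 passed the filter and none reached an unadjusted p under 0.05 (16.2%, 22.0% and 4.36% of all). None did so without Con 3 and Con 5 (4.65%, 8.10% and 5.75% of all). Igfbp7, a secreted protein with weak affinity for IGF, differed by 0.10 (SE 0.05) for Nic minus Con and 0.06 (SE 0.04) for Con-Pf minus Con. Ide, the insulin-degrading enzyme, differed by -0.07 (SE 0.05) for Con-Pf minus Con and 0.10 (SE 0.05) for Nic minus Con-Pf. Htra1, a protease of binding proteins, differed by -0.05 (SE 0.05) for Nic minus Con, and Stc2, a stanniocalcin that inhibits PAPPA, by 0.09 (SE 0.05) for Nic minus Con-Pf. Once Con 3 and Con 5 were left out, Igfbp7 differed by 0.05 (SE 0.04) and Htra1 by -0.05 (SE 0.06) for Nic minus Con. For Con-Pf minus Con, Igfbp7 then differed by 0.02 (SE 0.04) and Ide by -0.04 (SE 0.05).

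**Figure D5:**
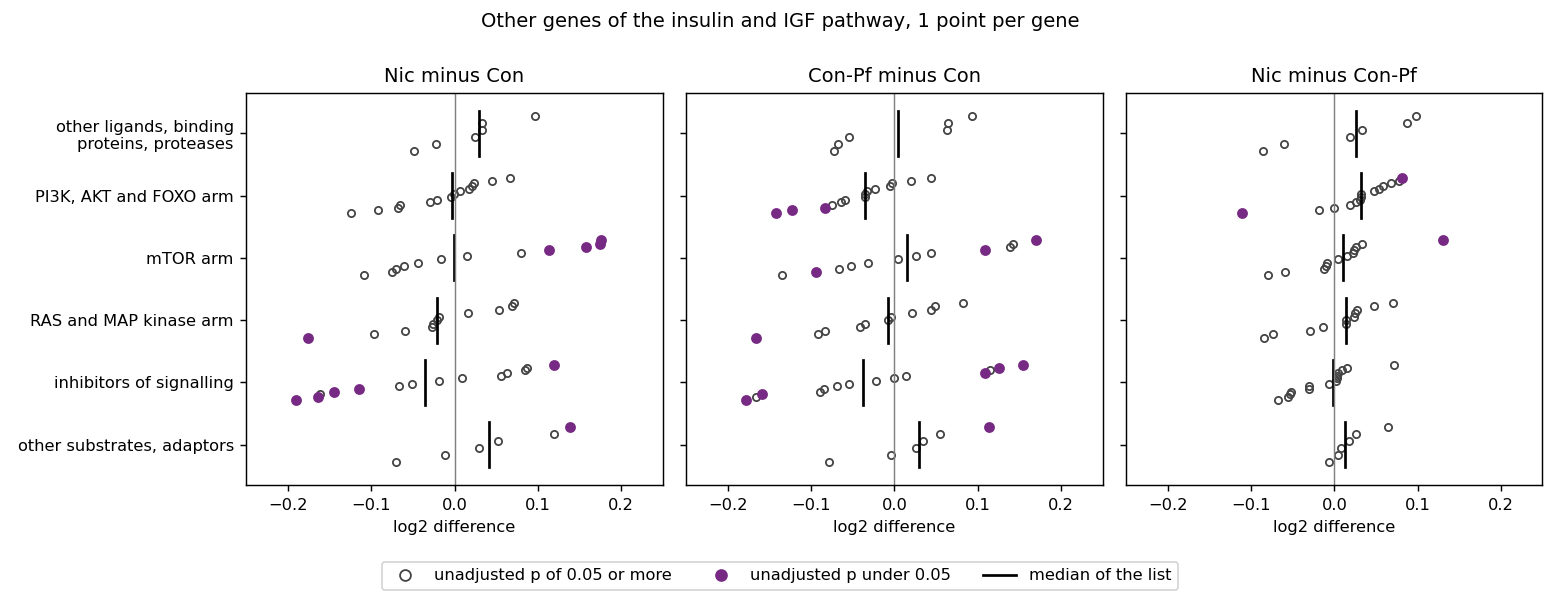
Difference in log2 level for each of the 63 other pathway genes above the filter, by list, in the panels Nic minus Con, Con-Pf minus Con and Nic minus Con-Pf. Filled points have an unadjusted p under 0.05 (11, 13 and 3 genes), the vertical bars are list medians, and no gene lay beyond 0.2 in size.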

How the data were processed

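The deposited values are log2 levels that the authors made from the arrays with RMA (background correction, quantile normalization, and a summary of the probes of each set). The submitters' processing notes also name Affymetrix Expression Console 1.1. Quantile normalization gives all arrays the same distribution, so a shift of all genes cannot be seen. The authors had removed 2 Con arrays and 1 Nic array. Their supplement reports 1 RNA sample of low measured integrity, which was kept because chip loading was the likely reason. Which rat it came from is not given. Groups came from titles, and Con-Pf 9 and Con-Pf 10, whose description names a control, were kept as Con-Pf. For the analysed arrays the methods give 10 Con and 8 Con-Pf, the numbers obtained if these 2 are counted as Con. The same methods start from 10 Con and 10 Con-Pf rats and remove 2 Con arrays, which goes with the titles. The fits were also made with Con-Pf 9 and Con-Pf 10 counted as Con and without them. Of the probe sets, 15310 carry 1 symbol, 323 several and 13581 none.

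Differences were fitted with limma 3.58.1 in R 4.3.3 (data.table package, 1.17.8) with 1 linear model for the 3 groups, on the 14607 probe sets whose mean level reached the median. Benjamini-Hochberg adjustment was made over these (threshold 0.05). Tested on simulated data for Con-Pf minus Con with 14607 probe sets, the fit recovered 97% of planted differences of 0.5 and 63% of 0.25, with 8 false calls. Relations used deviations from group means and 100000 permutations, two-sided. There, Insr and marker genes with more than 1 probe set entered with their brightest one. All members were named, and of each pathway list the 2 genes with the smallest p in each comparison. Members and lists were chosen with earlier results of these data known. Alternatives were the methods' t-test (run with unequal variances, which the methods do not state), a pooled t-test, limma on 2 groups, trend and robust moderation, array weights, other filters, quantile normalization or median centring, other treatments of Con-Pf 9 and Con-Pf 10, a replicate block, and leaving out arrays. Leaving out Con-Pf 4 and Con 2 and describing the Insr gap were added after seeing the data. Probe-level signal over background was not analysed here. Plots were made in Python 3.11.15 with matplotlib 3.10.9.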

Additional observations from a re-analysis of the deposited data

Results flagged for a closer look

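In 4 of the 30 sets of values (10 probe sets in 3 groups) 1 rat lay far from the rest of its group by Dixon's criterion, which chance alone meets in about 1 of 20. Igf2 was 10.37 on Con-Pf 4, where the next Con-Pf rat had 9.27. Igfbp2 was 9.02 on the same array, where the next had 6.89. Igf2r was 8.63 on Nic 2, below the next Nic value of 8.72. Igfbp4 was 8.19 on Con 4, above the next Con value of 7.96.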

How the results depend on the processing

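The count of members called was 0 in each comparison under all alternatives run, and the smallest adjusted p of any member was 0.0678 (Igf1r, Con-Pf minus Con, without Con 7). Leaving out each array in turn, the count was also 0, and 12 of 750 values for single members changed sign. Of 429 values under other settings 14 changed sign and 415 did not.

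Without Con 3 and Con 5 the sign changed for Con-Pf minus Con in Igf1 (-0.0784), Igf2 (-0.0407), Igf2r (0.0344) and Igfbp2 (-0.0607), and for Nic minus Con in Igf2 (-0.0759) and Igf2r (0.000841). Without Con-Pf 4 and Con 2 it changed for Igf2 (0.0880) and Insr probe set 10756251 (0.0164) in Nic minus Con-Pf, and for Igfbp2 in all 3 (0.0101 for Nic minus Con, -0.0381 for Con-Pf minus Con, 0.0482 for Nic minus Con-Pf). With array weights it changed for Igf1 in Con-Pf minus Con (-0.0504) and Igf2 in Nic minus Con (-0.00806), and with median centring for Insr probe set 10756251 in Nic minus Con-Pf (0.00422).

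Over the fits that each left out 1 array, Con-Pf minus Con ranged from -0.0519 to 0.0677 for Igf1, from -0.0129 to 0.215 for Igf2 and from -0.153 to 0.212 for Igfbp2, and Nic minus Con from -0.179 to 0.0101 for Igfbp2. Nic minus Con-Pf ranged from -0.0743 to 0.0880 for Igf2, from -0.00667 to 0.0294 for Igf1r, from -0.0547 to 0.0200 for Insr probe set 10756251 and from -0.254 to 0.0482 for Igfbp2. None of these passed the adjustment.

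The labels do not say whether same replicate numbers pair the rats, and the correlations of same-numbered arrays could not settle it. They ran from -0.36 to 0.31 for Nic and Con (2 of 7 over 0.1). For Con-Pf and Con they ran from 0.02 to 0.18, and for Nic and Con-Pf from -0.21 to 0.34 (4 of 7 over 0.1 in each). Their means were -0.02, 0.09 and 0.08 in that order, beside 0.0022, -0.017 and -0.012 for arrays with different numbers. With the replicate number as a block over replicates 1 to 7 the members called were again 0, and Con-Pf minus Con gave 153 calls over all probe sets, against 132 for the same arrays unblocked. Over all probe sets, Con-Pf minus Con gave 184 calls, 66 with the methods' t-test, 84 with pooled variance, 99 with 2 groups in the fit and 96 with no filter. It gave 116 without Con-Pf 9 and Con-Pf 10, 27 with these counted as Con, 85 without Con 3 and Con 5, 121 without Con-Pf 4 and Con 2, and 104 (without Con 3) to 480 (without Con 7) when 1 array was left out. Nic minus Con-Pf gave 27 calls, 6 with the methods' t-test, 8 with pooled variance, 55 with array weights, 14 with the stricter filter, 5 with Con-Pf 9 and Con-Pf 10 counted as Con, 14 with the block and 17 for the same arrays unblocked. It gave 18 (without Nic 7) to 35 (without Con-Pf 7) when 1 array was left out. Without Con 3 and Con 5 the r of Igf1r with Igf2r was 0.54 and that of Igf1 with Igfbp5 0.32. The number of arrays limits the precision, and the cause of these shifts was not tested.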
